A study of Mus musculus with 27 samples.

Results

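The AMPA and kainate receptors are the fast glutamate-gated cation channels of the retina, and the 9 genes that encode their pore-forming subunits are described here: Gria1, Gria2, Gria3 and Gria4 for the AMPA receptors GluA1 to GluA4, and Grik1, Grik2, Grik3, Grik4 and Grik5 for the kainate receptors GluK1 to GluK5. They were taken by gene symbol from a table of 38168 features. Each symbol had 1 entry, and all 9 passed the filter on low values (1 CPM or more, a read in 1000000, in 3 or more libraries), as did 31760 features in all. Whole retinas of wild-type C57BL/6J mice, with no transgene and no treatment, were measured by RNA-seq in 27 libraries at 7 ages, from embryonic day 14 (E14, 3 libraries) and E17 (3 libraries) to postnatal day 1 (P1, 4 libraries), P6 (3), P15 (4), P28 (4) and P60 (6). Tissue was taken in the light phase. The study's methods describe each library as a pool of several embryos or mice, except at P60, where 2 were pools and 4 were of single mice without it being said which, whereas the labels give 3 retinas per library throughout. By the study's methods, embryos and P1 mice were of mixed sex and later mice were males. Mature retina here stands for P15 to P60 and embryonic retina for the earliest pair of ages, and the 6 steps between successive ages were compared as well.

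Each receptor is an assembly of 4 subunits around a central pore. AMPA receptors carry most fast excitatory transmission, and a receptor that contains an edited GluA2 subunit passes little calcium. GluK1, GluK2 and GluK3 can form kainate receptors by themselves, whereas GluK4 and GluK5 bind kainate with high affinity and need a partner from the first group to reach the membrane. In the retina these receptors take up the glutamate signal of cones in horizontal cells and OFF cone bipolar cells, and that of bipolar cells in amacrine and ganglion cells, while ON bipolar cells use the metabotropic receptor encoded by Grm6.

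The CPM values were scaled to totals of 7077781 to 11332323 reads per library, recovered from the steps of the values, so that 1 read was worth 0.0882 to 0.141 CPM. The study gives a larger number of reads as collected per library. The genes with fewest reads were Grik4, with 13 reads in its lowest library (P60), and Grik1, with 15 (E14). The label of whole retina was checked against marker genes. The summed level of 4 rod genes went from 14.7 to 20.4 CPM at E14 to 22681 to 27447 CPM at P60, and that of 5 progenitor genes from 5000 to 5126 CPM to 19.0 to 33.0 CPM. Of other tissues, 6 genes of the retinal pigment epithelium summed to at most 65.7 CPM in any library. The median of 5 lens genes summed was 2.14 to 3.58 CPM over the ages. Crybb2, a lens crystallin gene, was at 0 reads in every library up to P28 and had reads in at least 1 library at P60. At P60, replicates 1, 2 and 6 correlated better on average with P28 than with the rest of P60, which bears on the comparison of P60 with P28. In its level of Grik5, replicate 6 lay nearer to replicates 3 to 5 than to replicates 1 and 2.

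In the mouse genome build GRCm38 with the GENCODE M21 annotation, the genes lie on 8 chromosomes and span 62.5 kb (Grik5) to 694 kb (Grik2). Gria1 (Gene ID 14799) is at chr11:57011387-57330244 on the plus strand, Gria2 (14800) at chr3:80681450-80802835 on the minus strand, Gria3 (53623) at chrX:41400854-41678601 on the plus strand and Gria4 (14802) at chr9:4417896-4796234 on the minus strand. Grik1 (14805) is at chr16:87895900-88290265 on the minus strand, Grik2 (14806) at chr10:49094833-49788766 on the minus strand, Grik3 (14807) at chr4:125490700-125714173 on the plus strand, Grik4 (110637) at chr9:42518135-42944493 on the minus strand and Grik5 (14809) at chr7:25009849-25072346 on the minus strand. No annotated gene on the opposite strand overlaps any of them.

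The Q/R site in the pore loop is the place where these subunits are known to differ in function. There the genome encodes glutamine, and in Gria2, Grik1 and Grik2 the editing enzyme ADAR2, encoded by Adarb1, can convert an adenosine of the codon in the RNA so that it is read as arginine, which lowers calcium passage. The spliced coding sequence around the codon is shown for all 9 genes, 5′ to 3′ on the coding strand, with the codon in capitals and 24 bases on either side.
Gria1: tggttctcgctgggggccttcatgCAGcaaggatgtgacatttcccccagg
Gria2: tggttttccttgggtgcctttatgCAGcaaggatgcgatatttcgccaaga
Gria3: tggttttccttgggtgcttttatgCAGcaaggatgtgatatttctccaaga
Gria4: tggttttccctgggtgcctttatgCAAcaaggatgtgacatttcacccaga
Grik1: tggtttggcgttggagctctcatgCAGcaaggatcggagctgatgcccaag
Grik2: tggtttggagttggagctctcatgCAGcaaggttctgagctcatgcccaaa
Grik3: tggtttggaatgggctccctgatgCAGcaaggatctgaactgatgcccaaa
Grik4: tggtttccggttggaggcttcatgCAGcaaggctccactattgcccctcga
Grik5: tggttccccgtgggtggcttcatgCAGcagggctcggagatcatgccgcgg
The codon was CAG in 8 genes and CAA in Gria4. It lies in exon 11 of the Gria2 transcript shown at chr3:80706911-80706913, in exon 13 of Grik1 at chr16:87940542-87940544 and in exon 12 of Grik2 at chr10:49244329-49244331. The codon ends 23 bases before the end of its exon in Gria1 to Gria4, 4 bases before it in Grik1 to Grik3 and 56 bases before it in Grik4 and Grik5. Of the 51 bases shown, 48 were the same in Gria3 as in Gria2, 45 in Gria4 and 41 in Gria1, against 32 to 36 in the kainate genes. The deposited values count the reads of a whole gene, so editing itself and the splice forms were not measured here, and how reads that match several of these genes were counted is not given in the sources used here.

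All 4 AMPA receptor genes were higher in mature than in embryonic retina, and they differed in how much and in the age of their highest mean. Gria3 rose most (7.92-fold), followed by Gria2 (3.70-fold), Gria1 (3.33-fold) and Gria4 (1.53-fold), by the ratio of the mean CPM over libraries. Levels of Gria1, Gria2 and Gria3 were highest on average at P15, whereas Gria4 was highest at P6 and fell from P15 on. For Gria4 and Gria1, P6 and P15 were not separated (limma, adjusted p = 0.639 and 0.055). Whole-retina RNA gives an average over all cells, so fewer cells of a type and less RNA per cell cannot be told apart in any of these values.

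Gria2 encodes the subunit that sets calcium permeability. Its level was 74.8, 79.2 and 79.6 CPM in the 3 libraries at E14, 157, 161 and 172 CPM at E17, and 212, 245, 236 and 237 CPM at P1. It was 355, 342 and 362 CPM at P6, 467, 454, 469 and 453 CPM at P15, 459, 478, 454 and 412 CPM at P28, and 395 to 492 CPM with a median of 420.3 at P60. No library of one age overlapped with the next up to P15, and the 3 mature ages overlapped with each other. The rise from embryonic to mature retina was 1.98 ± 0.047 on the log2(CPM + 1) scale (estimate ± SE; limma, adjusted p = 8.47e-27), with steps of 1.06 ± 0.078 from E14 to E17, 0.51 ± 0.073 to P1, 0.60 ± 0.073 to P6 and 0.39 ± 0.073 to P15 (adjusted p from 4.63e-12 to 9.28e-05).

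Gria3, the X-linked AMPA receptor gene, started from the lowest level per kilobase of exons in its family. It was at 4.30, 4.22 and 3.16 CPM at E14, 14.4, 15.5 and 11.3 CPM at E17, and 35.1, 28.9, 26.1 and 32.8 CPM at P1. It was at 49.6, 56.7 and 52.0 CPM at P6, 81.5, 87.3, 87.1 and 80.0 CPM at P15, 67.6, 74.8, 67.9 and 68.8 CPM at P28, and 54.8 to 65.0 CPM with a median of 60.8 at P60. Every library up to P15 was higher than all libraries of the age before, and from P15 on each age lay below the last. The gain from E14 to P15 was 4.13 ± 0.11 on the log2(CPM + 1) scale (21.6-fold in mean CPM; limma, adjusted p = 8.4e-25), and from P15 to P60 the level fell by 0.47 (SE 0.094; limma, adjusted p = 0.000532). Xist, which marks female tissue, was at 2.11 to 627 CPM over the E14 libraries, 404 to 595 CPM at E17, 1093 CPM in 1 of 4 P1 libraries and 1.26 to 1.59 CPM in the others, and at most 1.73 CPM later. Gria3 was at 26.1 CPM in the P1 library with high Xist and at 28.9 to 35.1 CPM in the other P1 libraries, whereas at E14 it was at 3.16 CPM in the library with Xist at 2.11 CPM and at 4.22 and 4.30 CPM in the others. The part of sex in its level was not tested.

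Gria1 encodes GluA1, a subunit that forms calcium-permeable receptors where GluA2 is missing. It ranged from 8.54 to 11.7 CPM at E14, from 15.5 to 17.8 at E17, from 24.2 to 29.5 at P1 and from 36.7 to 40.5 at P6. At the mature ages it ranged from 42.3 to 55.7 CPM at P15, from 37.6 to 48.7 at P28 and from 34.5 to 53.2 at P60. The mature libraries overlapped with those of P6, and no mature library overlapped with an embryonic library. Gria1 rose by 1.71 ± 0.085 on the log2(CPM + 1) scale (limma, adjusted p = 3.95e-18). From P6 to P15 its difference of 0.33 ± 0.13 had an adjusted p of 0.055 in limma and was not called, although the libraries of these ages did not overlap. The same step was called in 12 of 37 alternatives, edgeR on the recovered reads (TMM scaling) among them (0.41, adjusted p = 0.0273), with adjusted p from 0.0159 to 0.166.

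Gria4 encodes the subunit whose highest mean came earliest in the family. It stood at 103, 101 and 112 CPM at E14, 145, 144 and 151 CPM at E17, 202, 172, 200.0 and 212 CPM at P1 and 255, 257 and 261 CPM at P6. It stood at 243, 251, 262 and 236 CPM at P15, 198, 199, 203 and 165 CPM at P28, and 138 to 176 CPM with a median of 156 at P60. The P6 and P15 libraries overlapped, all P28 libraries lay below them, and the P60 libraries overlapped with those of E17, P1 and P28. The level fell by 0.38 (SE 0.076) from P15 to P28 and by 0.29 (SE 0.069) from P28 to P60 on the log2(CPM + 1) scale (limma, adjusted p = 0.00281 and 0.0103). The step from P28 to P60 was not called with the replicate block (adjusted p = 0.0613), in a fit of these ages alone (0.189) or without P60 replicates 3 to 6 (0.307). At P60 it was still higher than at E14, by 0.57 ± 0.076 (limma, adjusted p = 7.58e-08).

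**Figure D1:**
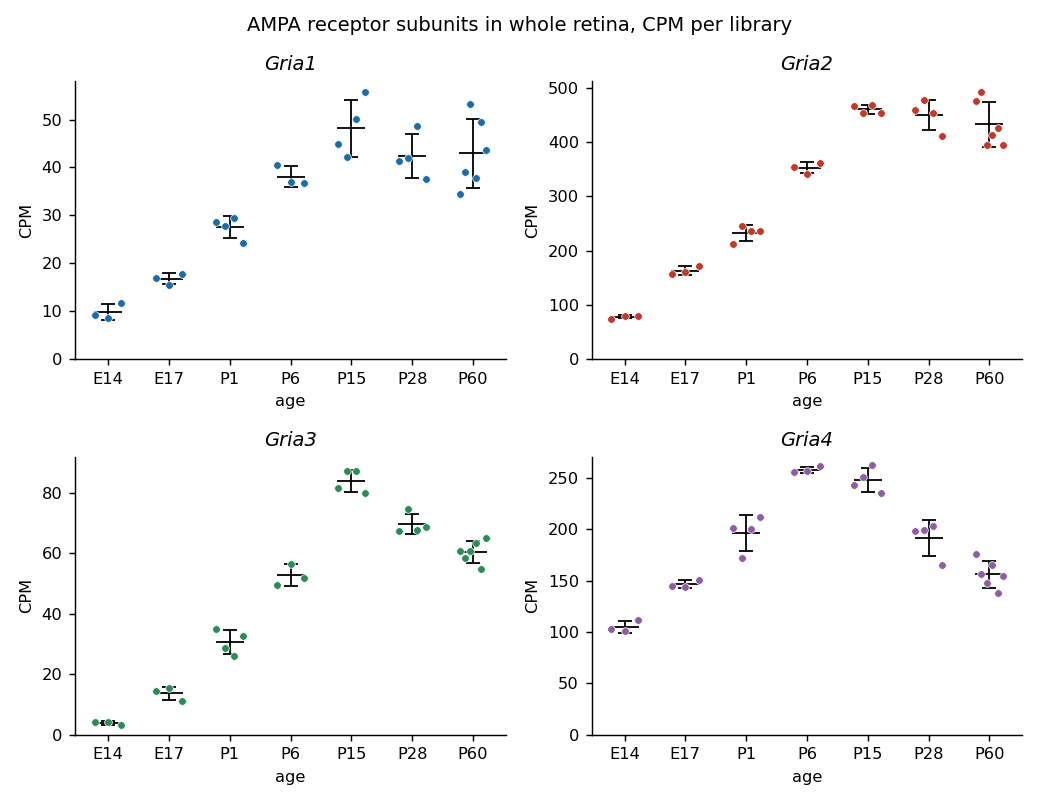
Levels of the 4 AMPA receptor subunit genes in CPM (vertical axes, each from 0) by age (horizontal axes); each point is a library, the long bar the mean and the whiskers 1 SD. The means of Gria1, Gria2 and Gria3 climb to P15, while Gria4 has its highest mean at P6 (255 to 261 CPM) and is at 138 to 176 CPM at P60.

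The kainate receptor genes did not move together. Grik1 rose 39.0-fold in mean CPM between embryonic and mature retina, nearly all of it between P1 and P15. Grik3 was highest at P1 and Grik2 at P6, and both then fell. Grik4, at no more than 7.45 CPM in any library, was lower in mature than in embryonic retina, and for Grik5 no difference between any of the 21 pairs of ages passed the test in limma.

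Grik1 encodes GluK1, the subunit known for OFF cone bipolar cells. It was at 2.90, 2.11 and 1.58 CPM at E14, 3.58, 3.18 and 5.38 CPM at E17 and 4.91, 5.55, 5.54 and 5.09 CPM at P1. It was at 89.3, 85.7 and 87.6 CPM at P6, 129.7, 124, 127 and 129 CPM at P15, 136, 133, 128 and 115 CPM at P28, and 100.1 to 126 CPM with a median of 116 at P60. The libraries fell into a low group up to P1 and a high group from P6, with nothing in between. From P1 to P6 the level rose 16.6-fold, by 3.82 ± 0.12 on the log2(CPM + 1) scale (limma, adjusted p = 9.78e-22), and from P6 to P15 by a further 0.54 ± 0.12 (adjusted p = 0.000932). Its earlier step from E14 to E17 was 0.65 ± 0.13 (limma, adjusted p = 0.000583) and was not called in a fit of those 2 ages alone (adjusted p = 0.0757).

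Cell type markers moved across the same step as Grik1. Between P1 and P6 the summed level of 4 OFF cone bipolar genes (Vsx1, Tacr3, Lhx3 and Fezf2) went from 18.9 to 21.6 CPM to 71.0 to 81.9 CPM, with 3 of 4 higher and 1 lower. The sum of 4 ON bipolar genes (Grm6, Trpm1, Isl1 and Prkca) went from 145 to 155 CPM to 733 to 1002 CPM and that of 4 rod genes from 59.1 to 61.8 CPM to 1612 to 2164 CPM, with all members higher. The sum of 5 progenitor genes went from 4336 to 4732 CPM to 136 to 184 CPM, with 5 of 5 lower. Outside the retina, 6 genes of the pigment epithelium summed to 6.81 to 13.5 CPM at P1 and 27.1 to 42.5 CPM at P6, with 4 of 6 higher, and 3 blood genes were all higher. At P15, where Grik1 was higher still, the OFF cone bipolar sum was 51.5 to 56.9 CPM, with 1 gene higher and 3 lower than at P6. The ON bipolar sum was then 1519 to 1590 CPM (2 genes higher, 1 lower) and the rod sum 14980 to 15955 CPM (4 higher). The part of cell composition in the rise of Grik1 was not tested.

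Grik3 encodes GluK3, a subunit of low glutamate sensitivity. Its level was 9.40, 9.70 and 8.95 CPM at E14, 41.4, 47.5 and 51.8 CPM at E17, 87.1, 79.3, 81.5 and 86.5 CPM at P1 and 55.7, 66.8 and 56.7 CPM at P6. It was 17.1, 16.2, 19.2 and 17.2 CPM at P15, 15.7, 12.6, 15.2 and 13.8 CPM at P28 and 11.8 to 19.7 CPM with a median of 13.6 at P60. The E17, P1 and P6 libraries stood above all others without overlapping with each other, and the 14 mature libraries lay above every E14 library and below every E17 library. The level rose by 3.03 ± 0.13 from E14 to P1 (8.94-fold; limma, adjusted p = 1.64e-18) and fell by 2.20 (SE 0.12) from P1 to P15 on the log2(CPM + 1) scale (limma, adjusted p = 1.37e-16). The sum of 5 amacrine cell genes was 92.0 to 111 CPM at E14, 715 to 851 CPM at P1 and 498 to 539 CPM at P60. From P1 to P6, 3 of these 5 genes were higher and 2 lower, and so they were from P6 to P15. Their part in the level of Grik3 was not tested.

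Grik2 encodes GluK2, which pairs with GluK5 in many neurons. It ranged from 55.5 to 61.5 CPM at E14, from 93.0 to 105 at E17, from 75.8 to 98.7 at P1 and from 126 to 129.9 at P6. It then ranged from 69.4 to 86.9 CPM at P15, from 59.3 to 77.3 at P28 and from 54.1 to 69.3 at P60. The 3 P6 libraries lay above all others, and P60 overlapped with E14. From P1 to P6 the level rose by 0.55 ± 0.10 and from P6 to P15 it fell by 0.65 (SE 0.10) on the log2(CPM + 1) scale (limma, adjusted p = 3.95e-05 and 4.71e-06). Its mature and embryonic means of 70.9 and 78.2 CPM differed by -0.08 ± 0.064 (limma, adjusted p = 0.238), an average over ages that rise and fall.

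Grik4 and Grik5 encode the high-affinity subunits GluK4 and GluK5. Grik4 ranged from 4.52 to 7.45 CPM in the libraries up to P6 and from 1.63 to 4.14 CPM in the mature libraries, which correspond to 32 to 67 and 13 to 34 reads. The mature libraries did not overlap with the embryonic ones, and the level fell by 0.77 (SE 0.12) on the log2(CPM + 1) scale (limma, adjusted p = 1.65e-06). Its drop from P6 to P15 of 0.66 (SE 0.19; limma, adjusted p = 0.00775) was not called when P6 replicate 3 was left out (adjusted p = 0.051). Grik5 ranged from 42.7 to 52.5 CPM up to P6, from 36.5 to 45.2 CPM at P15 and P28 and from 33.7 to 58.9 CPM at P60. Grik5 was the member whose variation over the 7 ages did not pass the F test (limma, adjusted p = 0.102), although it did without P60 replicate 1 (adjusted p = 0.00475) and without P60 replicate 2. With edgeR's quasi-likelihood test Grik5 was called between P60 and P28 (0.39 with TMM scaling, adjusted p = 0.0399), one of 6 of 39 alternatives that called it, with adjusted p from 7.61e-06 to 0.665. Its P60 libraries split, with 33.7 and 38.7 CPM in replicates 1 and 2 and 56.6, 58.9, 58.4 and 52.4 CPM in replicates 3 to 6. With all libraries Grik5 differed between mature and embryonic retina by -0.13 ± 0.086 on the log2 scale (limma, adjusted p = 0.177). Without replicates 3 to 6 the difference was -0.27. That fit leaves out the P60 libraries in which Grik5 was high and was chosen after seeing the data. A lower mature mean is thus built in, and no p-value is given for it.

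**Figure D2:**
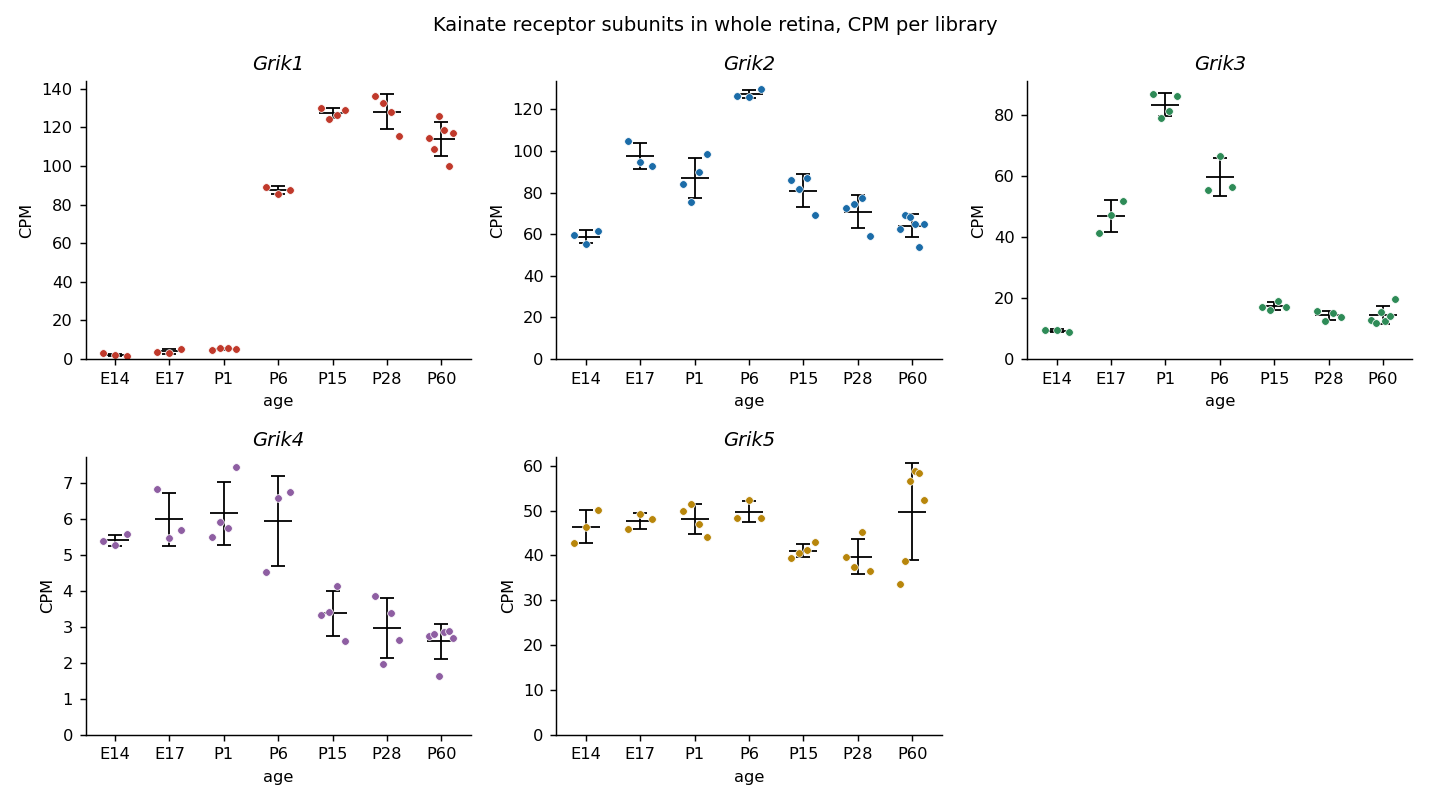
Levels of the 5 kainate receptor subunit genes in CPM (vertical axes, each from 0) by age (horizontal axes); each point is a library, the long bar the mean and the whiskers 1 SD. Grik1 switches from at most 5.55 CPM up to P1 to at least 85.7 CPM from P6, Grik3 peaks at P1, Grik2 at P6, and the P60 libraries of Grik5 fall into a pair below 40 CPM and 4 above 50 CPM.

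Counted over the 9 genes, 7 passed the test between mature and embryonic retina (limma, adjusted p under 0.05), 5 higher and 2 lower, in a comparison in which 75.4% of all features tested did so, 35% higher and 40.4% lower. Of them, 4 AMPA or kainate genes (Gria1, Gria2, Gria3 and Grik1) rose by at least 1 on the log2 scale, a size that 14.9% of all features reached upward. The 2 lower genes were Grik3 and Grik4. For Grik3 the embryonic side is an average over E14 and E17, which lay below and above all mature libraries. Against E14 alone Grik3 was higher at P15, P28 and P60, by 0.83, 0.56 and 0.56 (limma, adjusted p from 1.31e-06 to 0.000316). The libraries of the 2 sides did not overlap for 4 genes that were higher (17.4% of all features) and for 1 that was lower (23% of all features). The median log2 fold change was 0.65 over the 9 genes, 1.84 over the AMPA genes and -0.13 over the kainate genes, against -0.06 over all features. Over the 7 ages 8 of the 9 varied by the F test, as did 83% of all features.

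The early steps held most of the rises. Between E14 and E17 7 of the 9 genes rose and none fell (limma), where 10.6% of all features were called, 7.56% higher and 3.02% lower. The 2 others, Grik4 and Grik5, had differences of 0.12 ± 0.21 and 0.04 ± 0.14. Largest was Grik3 at 2.20 ± 0.14 on the log2(CPM + 1) scale (5.01-fold in mean CPM; adjusted p = 1.21e-13), then Gria3 at 1.59 ± 0.12 and Gria2 at 1.06 ± 0.078. From E17 to P1 5 of the 9 rose, the 4 AMPA genes and Grik3, in a comparison with 9.21% of all features called, 5.77% higher and 3.43% lower. Gria3 had the largest step at 1.11 ± 0.11 (limma, adjusted p = 8.98e-09).

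Between P1 and P6 6 of the 9 rose and Grik3 fell, where 38.3% of all features were called, 18% higher and 20.4% lower. Apart from Grik1 the called steps were between -0.48 and 0.77 on the log2(CPM + 1) scale. From P6 to P15 3 rose (Gria2, Gria3 and Grik1) and 3 fell (Grik2, Grik3 and Grik4), and 33.4% of all features were called, 14.4% higher and 19% lower. The fall of Grik3 was the largest at 1.72 on the log2 scale (SE 0.13; limma, adjusted p = 3.44e-12). By family, 2 of 4 AMPA receptor genes rose and 3 of 5 kainate receptor genes fell in limma. With edgeR, TMM scaling, 3 of 4 AMPA genes were called, Gria1 being the addition, and in a fit of these ages alone 8 of the 9 members were called, Gria1 and Grik5 being added. These fits called 9858 and 12237 of the 31760 features, against 10610 in the main fit.

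After P15 few members changed in a single step. Between P15 and P60 taken directly, Gria4, Gria3 and Grik2 were lower at P60 in the main fit. Their differences were -0.66, -0.47 and -0.33 on the log2(CPM + 1) scale (limma, adjusted p = 3.58e-08, 0.000532 and 0.00435). The share of all features called in this direct comparison was not counted, so how unusual these calls are cannot be said. From P15 to P28 the fall of Gria4 was the 1 call among the 9. By adjusted p, 2.72% of all features were called in this step, 1.14% higher and 1.58% lower. At an unadjusted p under 0.05 there were 4 of the 9 in the main fit, all lower. That number depended on the scaling: it was 2 in edgeR (TMM or RLE), and 2 in limma once values were rescaled by median of ratios. A fit of these ages alone gave 3. The share of all features at this unadjusted level was not counted. No kainate gene was called in this step by limma or by edgeR's quasi-likelihood test, with 2 and 0 of the 5 at an unadjusted p under 0.05. From P28 to P60 it was again Gria4 alone, where 12.9% of all features were called, 4.8% higher and 8.11% lower. This last count rested on which P60 libraries entered. Without P60 replicates 1 and 2, 3 of the 9 were called, Gria4, Gria2 (-0.14, limma, adjusted p = 0.0359) and Grik5 (0.50, adjusted p = 7.61e-06). For Grik5 the libraries left out were those with its lowest P60 values, so this call is no independent support for a rise. Without P60 replicates 3 to 6 no member was called by limma, 1 had an unadjusted p under 0.05, and Gria4 differed by -0.20 (adjusted p = 0.307). The number of all features called likewise went from 4100 to 11344 and to 148.

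**Figure D3:**
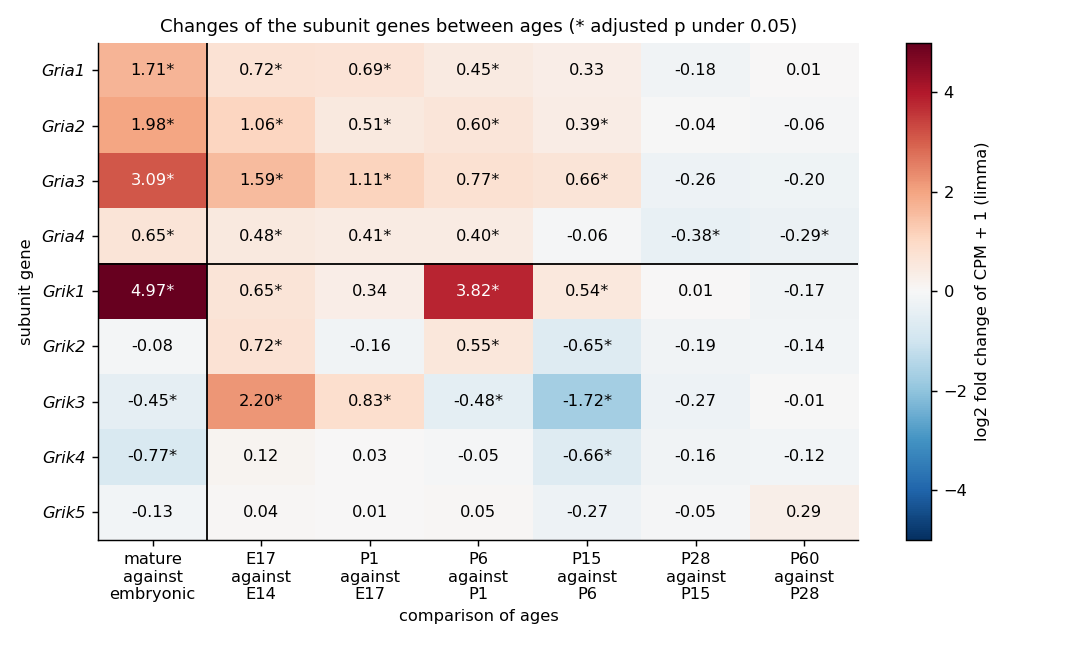
Log2 fold changes of CPM + 1 (colour and printed value; red higher, blue lower in the first-named age) for the 9 subunit genes (rows, AMPA above the line and kainate below it) in 7 comparisons of ages (columns, with mature against embryonic on the left). Stars mark a limma adjusted p under 0.05; the largest values are those of Grik1, 4.97 between mature and embryonic retina and 3.82 between P1 and P6.

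The ages of each gene were also ordered by mean level, and neighbours in that order were compared by limma. For Gria2 the order was E14, E17, P1, P6, P60, P28 and P15, with each age up to P6 differing from the next and the 3 mature ages not separated (adjusted p of 0.543 and 0.9). For Gria1 the order was E14, E17, P1, P6, P28, P60 and P15, and the ages from P6 on were not separated from their neighbours (adjusted p from 0.257 to 0.969). Grik1 ran from E14 to E17, P1, P6, P60, P15 and P28, with E17 and P1 not separated (adjusted p = 0.0895) and the mature ages not separated. Grik3 ran from E14 to P28, P60, P15, E17, P6 and P1, and the mature ages in this order were not separated (adjusted p of 0.974 and 0.0573), while each other neighbouring pair differed. Gria4 ran from E14 to E17, P60, P28, P1, P15 and P6, with E17 not separated from P60 (adjusted p = 0.303), P28 not from P1 (0.687) and P15 not from P6 (0.639).

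Levels of different genes were compared per length, as CPM per kilobase of all annotated exons. In these units the AMPA receptor genes summed to 23.7 ± 1.22 at E14 (SD, n = 3), 85.5 ± 2.36 at P15 (n = 4) and 65.9 ± 3.01 at P60 (n = 6). Gria4 made up 70.3% ± 0.52 of this sum at E14 (SD, n = 3), 54.4% ± 0.35 at P6 (n = 3) and 37.6% ± 2.1 at P60 (n = 6). Gria2 made up 21.2% ± 0.97, 30.2% ± 0.61 and 42.2% ± 2.5 at the same ages, so that its mean share was the larger at P60. Gria3 went from 1.68% ± 0.35 at E14 to 9.97% ± 0.33 at P15 (n = 4), and Gria1 from 6.85% ± 0.78 at E14 to 10.9% ± 2.2 at P60.

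The kainate receptor genes summed to 15.7 ± 0.72 CPM per kilobase at E14, 39.9 ± 0.94 at P6 and 33.5 ± 2.80 at P60, and the leading gene changed with age. Grik5 made up 57.1% ± 2.3 at E14 (SD, n = 3). At P1, Grik5 and Grik3 each made up 34.5% (SD 2.9 and 0.87, n = 4). Grik1 made up 2.90% ± 0.24 at P1, 32.6% ± 1.4 at P6 (n = 3) and 53.4% ± 1.1 at P15 (n = 4), and Grik4 no more than 5.97% in any library. These shares are descriptions with no test, and the ranks depend on the length used. With the longest coding sequence as length Gria2 had the largest AMPA share from E17 on and Grik2 the largest kainate share from E14 to P6, while Grik1 had the largest kainate share from P15 on with each of the 3 lengths tried.

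**Figure D4:**
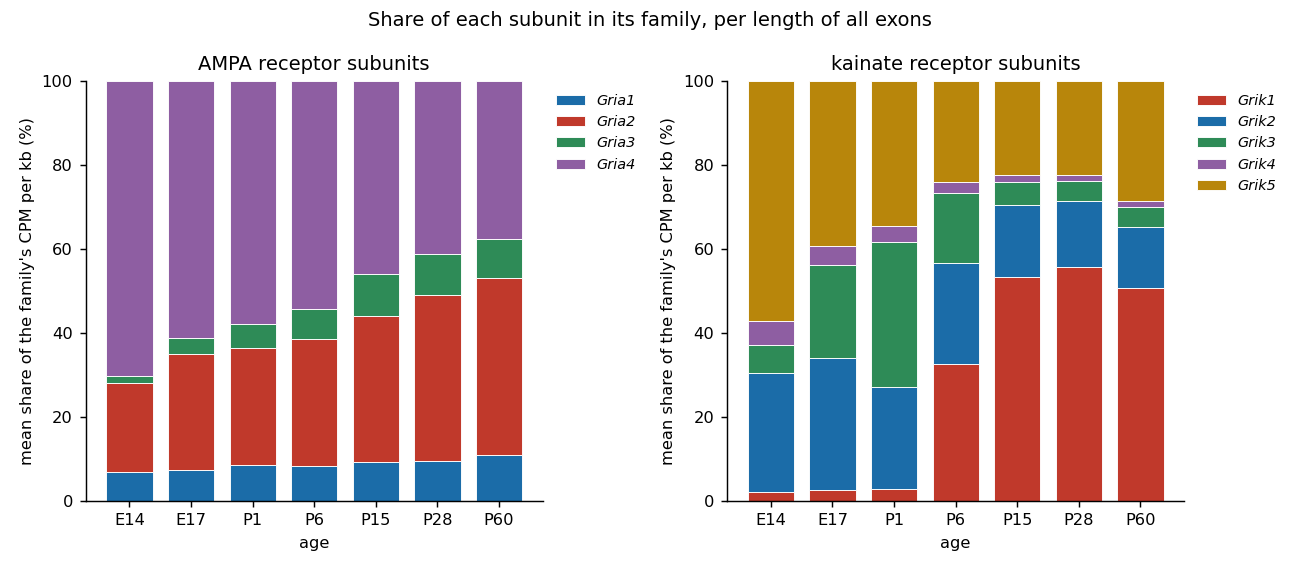
Mean share (%) of each subunit gene in the summed CPM per kilobase of all exons of its family (vertical axes) at the 7 ages (horizontal axes), for the AMPA genes on the left and the kainate genes on the right. The Gria4 share shrinks from 70.3% at E14 to 37.6% at P60, and the Grik1 share grows from 2.90% at P1 to 53.4% at P15.

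The auxiliary subunits of AMPA receptors, which steer their trafficking and gating, did not move as a block. Of 12 genes (6 Cacng genes for the TARP proteins, Cnih2, Cnih3, Shisa6, Shisa7, Shisa9 and Gsg1l), 7 were higher and 3 lower in mature than in embryonic retina (limma), with a median log2 fold change of 0.71, in a comparison with 35% of all features higher and 40.4% lower. Cacng4, which encodes a TARP, went from 141 to 166 CPM at E14 to 32.0 to 42.8 CPM at P60, without overlap, and fell by 1.59 (SE 0.075) on the log2(CPM + 1) scale between embryonic and mature retina (limma, adjusted p = 1.32e-18). Cacng3 rose by 1.54 ± 0.097 (adjusted p = 2.18e-15) and Cacng2, which encodes stargazin, by 0.66 ± 0.083 (adjusted p = 2.09e-08), and Cacng7 differed by 0.14 ± 0.090 (adjusted p = 0.149). Most of the Cacng3 rise lay between E14 and E17, where its mean went from 5.34 to 27.2 CPM, the step in which Gria2 and Gria3 also had their largest change.

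The auxiliary subunits of kainate receptors moved in opposite directions. Neto1 ranged from 21.5 to 28.4 CPM at E14, from 7.92 to 10.6 at P1, from 74.5 to 90.5 at P15 and from 36.5 to 73.7 at P60. Neto2 ranged from 66.2 to 75.6 CPM at E14, from 69.7 to 76.8 at P1, from 30.1 to 49.8 at P15 and from 18.5 to 30.2 at P60. Between embryonic and mature retina Neto1 rose by 1.81 ± 0.11 and Neto2 fell by 1.15 (SE 0.096) on the log2(CPM + 1) scale (limma, adjusted p = 1.82e-15 and 1.91e-12). Neto1 rose from P1 to P6 (2.83-fold) and from P6 to P15 (3.16-fold), and Grik1 rose in the same 2 steps (16.6-fold and 1.46-fold).

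All 5 genes for assembly and editing (Frrs1l, Cpt1c, Porcn, Abhd6 and Adarb1) were higher in mature than in embryonic retina. Adarb1, which encodes the editing enzyme of the Q/R site, ranged from 23.4 to 26.8 CPM at E14, from 48.2 to 52.8 at E17, from 61.6 to 81.2 at P1 and from 102 to 108 at P6. It ranged from 198 to 209 CPM at P15, from 231 to 237 at P28 and from 219 to 253 at P60. The libraries of neighbouring ages did not overlap up to P28, and the rise from embryonic to mature retina was 2.61 ± 0.049 on the log2(CPM + 1) scale (5.93-fold; limma, adjusted p = 2.3e-29). Frrs1l, a protein of early AMPA receptor assembly, rose by 1.36 ± 0.095 (adjusted p = 2.56e-14), Abhd6 by 1.29 ± 0.085 (adjusted p = 5.58e-15) and Cpt1c by 0.40 ± 0.098 (adjusted p = 0.000487).

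**Figure D5:**
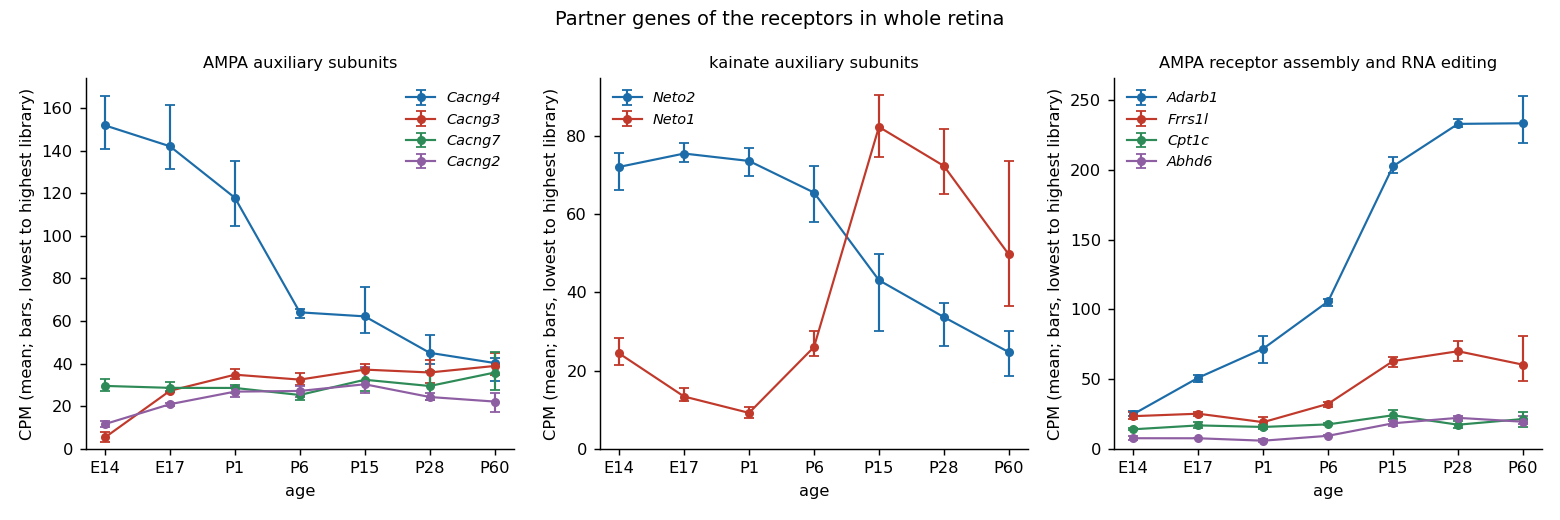
Mean CPM by age (points) with the lowest and highest library (bars) for the named genes of 3 lists: AMPA auxiliary subunits (left), kainate auxiliary subunits (middle) and assembly and RNA editing (right). Cacng4 and Neto2 decline, Neto1 is lowest at P1 (7.92 to 10.6 CPM) and highest at P15, and Adarb1 climbs from about 25 CPM at E14 to 219 to 253 CPM at P60.

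Among 8 scaffold and trafficking genes, 5 were higher (Dlg1, Dlg2, Dlg4, Grip2 and Nsf) and 2 lower (Dlg3 and Grip1) in mature retina, with a median log2 fold change of 1.30. The counts of these lists stand beside 75.4% of all features called in this comparison, 35% higher and 40.4% lower. Dlg4, which encodes the postsynaptic scaffold PSD-95, rose 8.09-fold (2.94 ± 0.089 on the log2 scale; limma, adjusted p = 7.6e-24), Nsf, an ATPase that binds GluA2, 7.02-fold and Dlg2 3.63-fold. The 3 neuronal pentraxin genes, whose products cluster AMPA receptors, were all higher, Nptx2 by 2.81 ± 0.093, Nptx1 by 1.77 ± 0.078 and Nptxr by 0.88 ± 0.079 (limma, adjusted p from 6.74e-23 to 1.19e-11). For 7 NMDA receptor genes, which encode the slower glutamate-gated channels, 5 were higher and 1 lower, with a median of 1.53, between the medians of the AMPA (1.84) and kainate (-0.13) genes. Grin1, the obligatory NMDA subunit, rose 11.9-fold (3.48 ± 0.096; limma, adjusted p = 5.23e-25), Grin2a 10.8-fold and Grin2b 5.19-fold. The differences between these lists were not tested.

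Over the 27 libraries, the pattern most like that of each subunit was described by Pearson's r of log2(CPM + 1), with no test, since the libraries share age and depth. Grik1 was closest to Fam135b, Klhl18 and Tdrd7 (r = 0.997, 0.996 and 0.995), Gria2 to Rapgef4, Rasgrf2 and Klf9 (0.991, 0.987 and 0.987) and Gria3 to A430035B10Rik, Dlgap1 and Chrna6 (0.983, 0.983 and 0.982). Gria1 was closest to Dock9, Ttyh1 and Rims4 (0.980, 0.977 and 0.976), Grik3 to Nfib, A630083H20Rik and Irf2bp2 (0.976, 0.968 and 0.958) and Gria4 to Rev3l, Dab1 and Trim9 (0.954, 0.944 and 0.941). Grik4, Grik2 and Grik5 had no gene with an r above 0.936, 0.930 and 0.899. Among the members themselves Gria2 and Gria3 were most alike (r = 0.982), and Gria1 had an r of 0.963 with each of them. Grik2 and Grik3 had an r of 0.765, and Grik1 and Grik4 ran in opposite directions (r = -0.726).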

How the data were processed

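Retinal RNA of 27 samples was made into libraries with a SMARTer total RNA kit and read from a single end on a HiSeq sequencer. The reads were aligned by the authors with STAR on mm10 (GRCm38), and the deposited table gives CPM (read counts scaled to 1000000 reads) per gene and library. The annotation used for counting, the use of strand and the treatment of reads with several matches are not given in the sources used here. Divided by the smallest step in its library, each CPM value came out whole (tolerance 0.01), which gave totals of 7077781 to 11332323 reads (median 7969873). A count of 3 reads corresponds to 0.265 to 0.424 CPM.

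The filter required 1 CPM or more in 3 or more libraries and left 31760 of 38168 features, 19913 of them with a Gene ID. Values were analysed as log2(CPM + 1), which understates the change of low genes, with limma 3.58.1 in R 4.3.3 (trended empirical Bayes), with age as the only factor over all libraries. Mature retina was the mean of P15, P28 and P60 and embryonic retina the mean of E14 and E17, each age with equal weight, whereas ratios of mean CPM weight libraries equally. P-values were adjusted by Benjamini-Hochberg over all features tested, and a call needed an adjusted p under 0.05. The sources do not tie the P60 libraries to single mice or pools, and p-values measure the spread between libraries. The scripts were tested on simulated data.

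The members and gene lists were chosen with earlier results of these data known. The text names the members, the 3 features most like each by Pearson's r, up to 4 genes per list by mean CPM, and Xist beside Gria3. Lengths, exons and coding sequences came from GENCODE M21. Alternatives were another pseudocount (0.1), no filter, a mean of at least 10 CPM, median-of-ratios scaling, a replicate block, edgeR 4.0.16 quasi-likelihood tests on the recovered reads (TMM and RLE scaling), a fit of the compared ages alone, summed entries of a symbol, a minimum log2 fold change of 1, each library left out, and other lengths and measures of likeness. Those without E14 replicate 1 (edgeR), without P60 replicates 1 and 2, without P60 replicates 3 to 6, and with coding length were chosen after seeing the data.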

Additional observations from a re-analysis of the deposited data

Results flagged for a closer look

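Of 36 combinations of a subunit gene and an age with 4 or 6 libraries, 3 held a library whose gap to the nearest other library, relative to the whole range, exceeded Dixon's 95% critical value, where chance gives about 1 in 20. Gria3 at P28 was at 74.8 CPM in replicate 2 and at 67.6 to 68.8 CPM in the others. Gria4 at P28 was at 165 CPM in replicate 4 and at 198 to 203 CPM in the others. Grik4 at P60 was at 1.63 CPM in replicate 3, which is 13 reads, and at 2.69 to 2.88 CPM in the others.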

How the results depend on the processing

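Of 34 differences between ages called for a member, 31 kept their direction and an adjusted p under 0.05 in every alternative run, and none changed direction in 1272 comparisons of a difference with its alternative. The 3 others were Gria4 between P60 and P28 (-0.24 on the log2 scale with the replicate block, -0.29 in a fit of these ages alone and -0.20 without P60 replicates 3 to 6, with adjusted p from 0.000252 to 0.307 over all alternatives), Grik1 between E17 and E14 (0.65 in a fit of these ages alone) and Grik4 between P15 and P6 (-0.58 without P6 replicate 3). Where a minimum log2 fold change of 1 was required as well, the number of members called was 4 for mature against embryonic retina, 3 for E17 against E14, 1 for P1 against E17, 1 for P6 against P1, 1 for P15 against P6, and 0 for P28 against P15 and for P60 against P28, where the changes of Gria4 were smaller than this minimum. In the same order of comparisons, 31%, 3.6%, 1.84%, 13%, 8.05%, 0.384% and 0.453% of all features met this rule. For P28 against P15 a fit of these ages alone gave 2 calls (Gria4 and Gria3). It called 1331 of the 31760 features, against 864 in the main fit.

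For P60 against P28, with 1 member called, the count was 0 with the replicate block (1 at an unadjusted p under 0.05 by limma), 0 in a fit of these ages alone (2 unadjusted), and 0 without P60 replicates 3 to 6 (1 unadjusted). Of the 31760 features, 1029, 7 and 148 were called in these fits, against 4100 in the main fit. The member count was 2 with edgeR and TMM scaling (Gria4 and Grik5), 2 with RLE scaling, 2 with edgeR without E14 replicate 1, and 3 without P60 replicates 1 and 2. Here 3481, 3526, 3131 and 11344 of all features were called. The cause was not tested. Leaving out each library gave 7 to 7 calls for mature against embryonic retina, 7 to 7 for E17 against E14, 5 to 6 for P1 against E17, 7 to 7 for P6 against P1, 5 to 7 for P15 against P6, 1 to 1 for P28 against P15, 1 to 2 for P60 against P28 (2 without P60 replicate 1 or replicate 2) and 8 to 9 for the F test over ages (9, with Grik5, without P60 replicate 1 or replicate 2). Of differences not called with all libraries, Gria1 between P15 and P6 was called without E14 replicate 3, P15 replicate 2 or P60 replicate 1, 3 or 5, Grik1 between P1 and E17 without E17 replicate 3 (adjusted p = 0.00643), and Grik5 between P60 and P28 without P60 replicate 1 or 2. The replicate numbers did not pair the libraries: the 69 pairs of libraries with the same number at different ages had correlations of -0.129 to 0.167 between their deviations from the age means, 7 of 27 libraries correlated best with their own number, and the replicate block, beside Gria4, changed the call of Gria1 between P15 and P6, which it called (0.35, adjusted p = 0.0274). Another scaling moved the median of all features between mature and embryonic retina from -0.06 to 0.04 (TMM). Under other measures of likeness 0 to 2 of the 3 most similar genes of a member stayed the same. With coding length the share of Gria2 at E14 was 40.1% and that of Grik2 49.7%. Coding length from proteins was not run, since none were used here. Grik4, with 13 to 67 reads per library, was the member for which depth limited precision most.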
